A study of Mus musculus with 12 samples.

Results

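The myogenic regulators and their MEF2 partners were followed through a 1-colour Agilent array comparison of mouse quadriceps muscle. The 9 genes are Pax7, Myf5, Myod1, Myog, Myf6, Cdh15, Mef2a, Mef2c and Mef2d, and every gene probe that the array annotation gives one of these names was taken. They held 12 of the 41174 gene probes and made up 9 of 30111 genes on the array, transcripts without a symbol included. In 10 of these probes, which cover 8 of the 9 genes, 6 or more of the 12 arrays gave a signal well above background, the filter for entering a test.

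Each array was hybridised with Cy3-labelled cRNA made from total RNA of 1 mouse. All 12 mice were C57BL/6J males aged 13 weeks with no genetic change named. The 6 exercised mice ran on a motorized treadmill for 4 weeks, and their muscle was taken 3 hours after the last bout. The other 6 were sedentary controls. No exercised mice were sampled at rest, so an effect of the 4 weeks and one of the last bout are not separated. Whole muscle was used, and in such bulk RNA fewer cells of a type and less RNA per cell cannot be told apart.

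Pax7 is the paired-box factor that marks satellite cells, the stem cells lying under the basal lamina of muscle fibres, and Cdh15 encodes M-cadherin, an adhesion protein between satellite cell and fibre. Myf5, Myod1, Myog and Myf6 are the basic helix-loop-helix factors of the myogenic family. They pair with E proteins on E-boxes: Myf5 and MyoD commit cells to the lineage, myogenin drives differentiation and fusion, and Myf6 (MRF4) is the member best known for its expression in mature fibres. Mef2a, Mef2c and Mef2d encode MADS-box factors that bind beside them, are held back by class IIa histone deacetylases, and are released by calcium-dependent kinases. In adult fibres Myog is known for its rise after denervation.

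The probes of the family are shown because what each of them can report on differs. For the 4 basic helix-loop-helix factors the first 30 of 60 bases are given 5′ to 3′, with G and C in capitals. The positions on genome build mm9, from the array annotation, are chr1:136188874-136188933 (plus strand) for Myog, chr7:53633956-53634015 (plus) for Myod1, chr10:106930237-106930296 (minus) for Myf6 and chr10:106919974-106920033 (minus) for Myf5.
Myog A_51_P102122: atCttGGGaaCCttCCaGtGCtttGtGtat
Myod1 A_51_P351166: ttttGttGttGttGttGtaGtCCttCaGtt
Myf6 A_51_P386794: tttaaaaaGaaaCttCtCaCCaCCtCaaGt
Myf5 A_51_P188281: ttGtatatGCCttaaaataaCttGataaat
Over the whole 60 bases G and C made up 35% of the Myog probe, 38.3% of the Myod1 and Myf6 probes and 15% of the Myf5 probe, against a median of 40% over all gene probes. Only 44 gene probes had as little G and C as the Myf5 probe, itself included, and 0% of these passed the filter, against 55.7% of all gene probes.

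The MEF2 genes had 6 probes. The Mef2a probe A_52_P311841 (chr7:74379743-74379802, minus strand) and the Mef2d probe A_51_P504672 (chr3:87972214-87972560, plus) share their best ungapped stretch of 29 bases, in capitals, of which 21 are the same.
Mef2a A_52_P311841: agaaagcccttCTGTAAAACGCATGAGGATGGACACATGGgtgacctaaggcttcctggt
Mef2d A_51_P504672: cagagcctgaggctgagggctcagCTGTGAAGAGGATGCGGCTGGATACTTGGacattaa
Mef2d A_52_P334052: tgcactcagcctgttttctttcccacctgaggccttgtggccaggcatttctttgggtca
The positions of the first Mef2d probe span 347 bases, 287 more than its length of 60, so it crosses a gap in the genome. The second Mef2d probe, A_52_P334052 (chr3:87972325-87972384, plus), was designed on the clone sequence AK141270 and lies wholly inside that gap. By these positions the second probe reads sequence that the first one skips.

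Of the 8 measured genes, 1 rose with exercise and 0 fell. The gene that rose was Myog, the differentiation factor, and its level was 2.30-fold higher in exercised than in sedentary muscle. Myod1, Myf6, Mef2c and Mef2d had estimates within 0.10 of 0 on the log2 scale, Mef2a was estimated higher, and the satellite cell genes Pax7 and Cdh15 were estimated lower. None of these 7 passed the test, which was a limma fit over 16450 genes with Benjamini-Hochberg adjustment at 0.05. Over all genes 3.67% were called, 1.82% as higher and 1.85% as lower. The median log2 difference of the 8 was 0.01, against -0.03 over all genes.

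**Figure D1:**
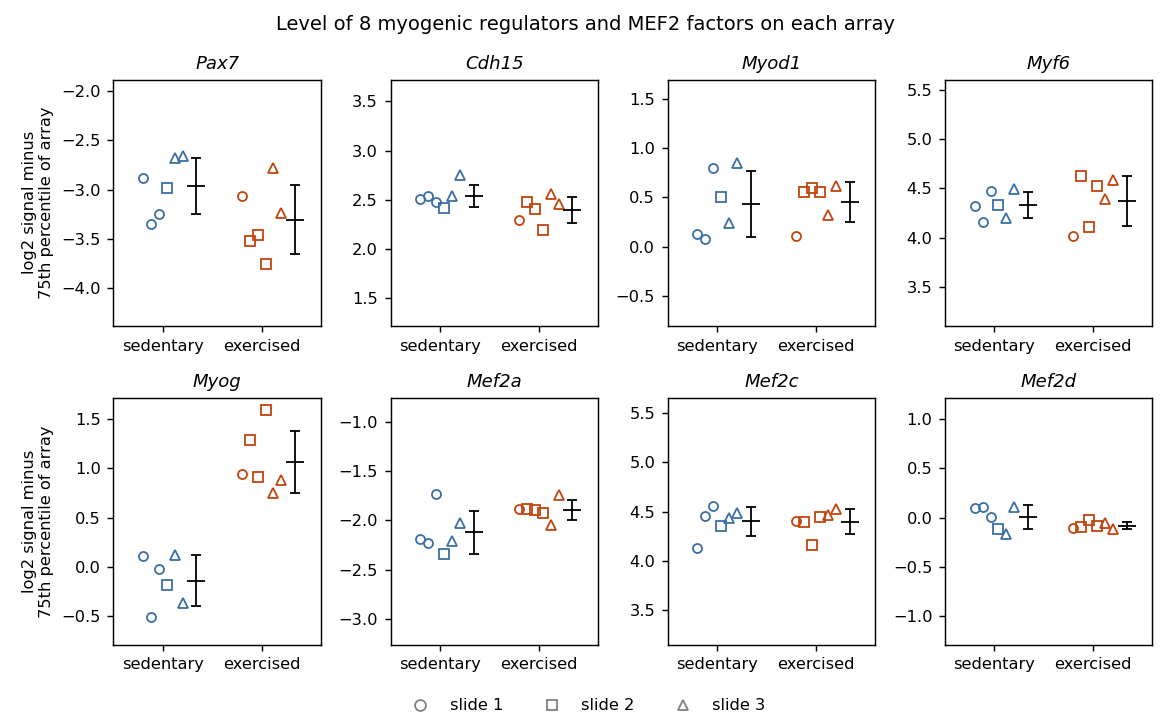
Level of each of the 8 measured genes on each array, as log2 signal minus the array's 75th percentile, at the probe with the highest mean level; each point is 1 mouse, its shape the slide, and the bars are mean ± SD (n = 6 a group). Every panel spans the same log2 range, and only for Myog do the exercised and sedentary points lie apart.

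Levels are log2 signals relative to the 75th percentile of the same array, so that a value of 0 is the brightness of that percentile. They allow a comparison of 1 probe between mice but not of one probe with another. In sedentary mice the Myog level was -0.50 at the lowest, -0.10 at the median and 0.12 at the highest. In exercised mice it was 0.76 at the lowest, 0.93 at the median and 1.59 at the highest. The groups did not overlap, with a gap of 0.63 between the highest sedentary and the lowest exercised mouse, and 3% of all genes tested likewise had groups that did not overlap. The log2 difference was 1.20 (SE 0.155, 95% interval 0.87 to 1.54, n = 6 against 6), which is 2.30-fold (1.82 to 2.90), with a limma adjusted p of 0.00106. By p-value Myog was number 62 of the 16450 genes.

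The Myog probe is printed 10 times on each array, and between 8 and 10 of these spots were used after outlier marks. Within an array the spots had an SD of 0.0305 to 0.139 on the log2 scale. Between mice the SD was 0.31 in exercised and 0.26 in sedentary muscle, more than within any array. The 12 arrays lay on 3 slides. Slide 1 held 1 exercised and 3 sedentary arrays, slide 2 held 3 and 1, and slide 3 held 2 and 2. Within these slides the log2 difference of Myog was 1.08, 1.45 and 0.94. With slide as a block it was 1.13 (0.76 to 1.51), and the limma adjusted p was 0.00763, in a fit that called 2.13% of all genes.

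**Figure D2:**
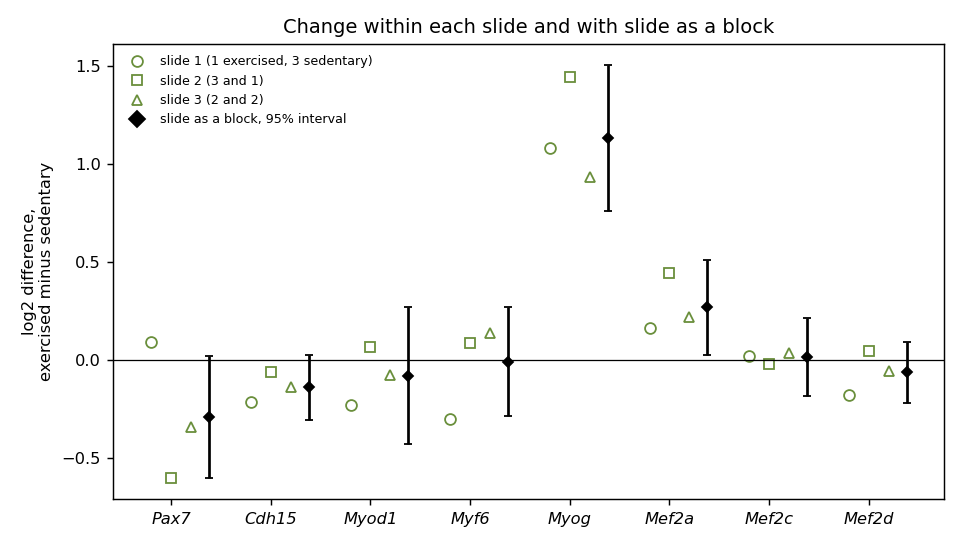
Log2 difference, exercised minus sedentary, of the 8 genes within each of the 3 slides (open symbols) and in a limma fit with slide as a block (diamonds, 95% interval). Myog is between 0.94 and 1.45 on every slide, Mef2a and Cdh15 keep 1 sign on all slides at smaller sizes, and the other 5 genes change sign between slides.

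The titles number the mice in sets named 1 and 2, whose meaning is not stated. In set 1, with 2 exercised and 3 sedentary mice, the log2 difference of Myog was 0.80. In set 2, with 4 and 3 mice, it was 1.48. The difference between the sets was 0.68 (0.07 to 1.30), with an unadjusted limma p of 0.0327 and an adjusted p of 0.553 over all genes, and it is not called. For all genes together 0 were called for such a difference, and 1442 had an unadjusted p below 0.05. Among the other 7 members the same difference ran from -0.34 for Mef2c (adjusted p = 0.567) to -0.13 for Mef2d (adjusted p = 0.757), so that Myog alone of the 8 had the higher estimate of the exercise difference in set 2.

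Myod1, which encodes the MyoD protein, ran from 0.08 to 0.85 in sedentary mice with a median of 0.37. In exercised mice it ran from 0.10 to 0.62 with a median of 0.55. The exercised range lay inside the sedentary one, and the log2 difference was 0.03 (-0.30 to 0.35, limma adjusted p = 0.959). Its 10 spots an array had SDs of 0.0473 to 0.15, whereas the SD between mice was 0.20 in exercised and 0.34 in sedentary muscle.

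Myf6, the MRF4 gene of mature fibres, was measured from 4.16 to 4.49 in sedentary mice (median 4.33) and from 4.02 to 4.63 in exercised mice (median 4.46). Of the exercised mice 3 lay above and 2 below all sedentary ones, so the exercised values were spread on both sides. Its log2 difference was 0.05 (-0.20 to 0.29, limma adjusted p = 0.894).

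Whether Myog changed more than its relatives was tested directly, since a call for one gene and none for another is no test of a difference. On each array the Myod1 level was subtracted from the Myog level, and this quantity was compared between groups. It was 1.18 higher in exercised mice (two-sided exact permutation test, p = 0.00216). For Myog against Myf6 the figure was 1.16, with the same p. This is the smallest p that the 924 ways of choosing 6 of 12 arrays allow in a two-sided test, and over these 2 comparisons it stands at 0.00216 after Benjamini-Hochberg adjustment as well. The planned comparison with Myf5 was not made because its probe did not pass the filter. The Myog groups lay apart already, and the members were chosen with earlier results of these data known. These p-values are thus no independent support for the rise of Myog.

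The Myf5 probe was well above background on 0 of 12 arrays. All of its spots together gave no group a measurable level, so no fold is given. A signal this near background, from a probe of 15% G and C, limits what can be said of Myf5. What part the base composition has in the dim signal was not tested.

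Pax7 was dim but above background on 12 of 12 arrays. In sedentary mice its level ran from -3.35 to -2.66 with a median of -2.93, and in exercised mice from -3.76 to -2.78 with a median of -3.35. Of the exercised mice 3 lay below every sedentary mouse, and the other 3 lay within the sedentary range. The log2 difference was -0.34 (-0.71 to 0.03, limma adjusted p = 0.357). It was 0.09 on slide 1, -0.60 on slide 2 and -0.34 on slide 3.

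Cdh15, the M-cadherin gene, ran from 2.42 to 2.75 in sedentary mice (median 2.52) and from 2.19 to 2.56 in exercised mice (median 2.43). Again 3 exercised mice lay below the lowest sedentary one. Cdh15 had a log2 difference of -0.14 (-0.31 to 0.03, limma adjusted p = 0.418), and it was between -0.21 and -0.06 on the 3 slides. Neither satellite cell gene thus passed the test, though both intervals lie mostly below 0.

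**Figure D3:**
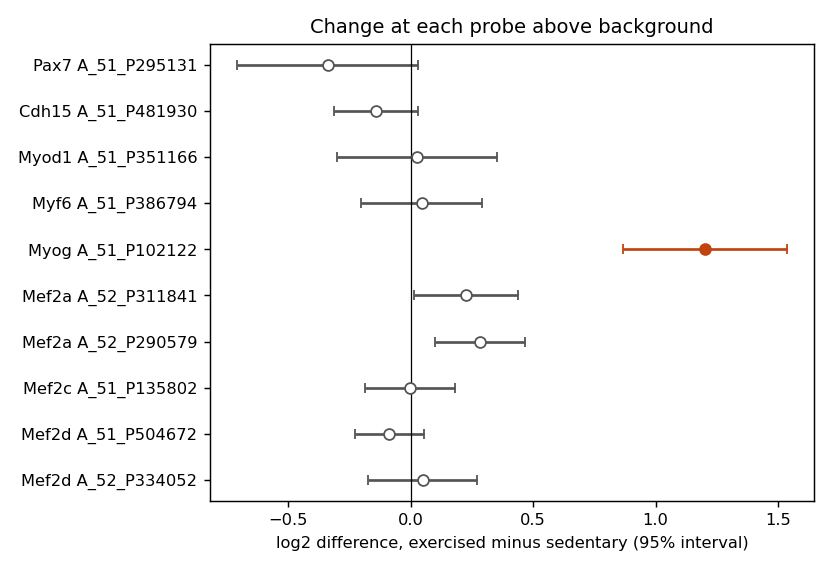
Log2 difference, exercised minus sedentary, with its 95% interval, at the 10 probes of the members above background, from a limma fit over all 22916 such probes. The filled point, Myog at 1.20, is the only probe called, both Mef2a probes have intervals above 0 without being called after adjustment, and the other 7 intervals include 0.

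Mef2a had 2 probes, dim but above background on 12 of 12 arrays. At A_52_P311841 its level was -2.35 to -1.74 in sedentary mice (median -2.20) and -2.05 to -1.74 in exercised mice (median -1.89). The exercised values lay inside the sedentary range, in its upper part, because 1 sedentary mouse (set 2, animal 5) was at -1.74. The log2 difference was 0.23 (0.01 to 0.44, limma adjusted p = 0.269), and it was 0.16, 0.44 and 0.22 on slides 1 to 3.

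At the other Mef2a probe, A_52_P290579 (chr7:74379398-74379457, minus strand), the level was -2.85 to -2.64 in sedentary mice (median -2.80) and -2.72 to -2.23 in exercised mice (median -2.54). At this probe 5 of 6 exercised mice lay above every sedentary mouse. Here the log2 difference was 0.28 (0.10 to 0.47), with an adjusted p of 0.0983 in a limma fit over all 22916 probes, of which 3.32% were called. Both Mef2a probes thus gave estimates of like size above 0, and neither passed the test.

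Mef2c is the MEF2 gene known to be needed for the assembly of sarcomeres. At A_51_P135802 (chr13:83802754-83802813, plus strand) its level was 4.14 to 4.56 in sedentary mice (median 4.44) and 4.16 to 4.53 in exercised mice (median 4.43). The exercised range lay inside the sedentary one, and the log2 difference was -0.0034 (-0.19 to 0.18, limma adjusted p = 0.99). The second Mef2c probe, A_52_P282110 on the clone sequence AK044643 (chr13:83717123-83717182, plus), was well above background on 0 of 12 arrays and gives no fold.

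Mef2d at A_51_P504672, the probe that crosses the gap, ran from -0.16 to 0.10 in sedentary mice (median 0.05) and from -0.12 to -0.03 in exercised mice (median -0.09). The exercised mice were close together, with an SD of 0.035 against 0.12, and all 6 lay below the sedentary median, though within the sedentary range. The log2 difference was -0.09 (-0.23 to 0.05, limma adjusted p = 0.567). At A_52_P334052, inside the gap, the level was -2.25 to -1.77 in sedentary mice (median -2.08) and -2.21 to -1.78 in exercised mice (median -2.02). The log2 difference there was 0.05 (-0.17 to 0.27), with an adjusted p of 0.875 in the limma fit over all probes. The 2 Mef2d probes had estimates of opposite sign, and each interval included 0.

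The sequence before the start of Myog is shown because this was the member that changed and because the myogenic basic helix-loop-helix factors bind E-boxes and the MEF2 factors bind MEF2 sites. The 250 bases before its RefSeq start on GRCm38.p6, chr1:134289754-134290003 (plus strand), are given with both motifs in capitals, searched on both strands. The E-box was CANNTG with any base at N. The MEF2 core was CTANNNNTA with A or T at every N.
Myog upstream: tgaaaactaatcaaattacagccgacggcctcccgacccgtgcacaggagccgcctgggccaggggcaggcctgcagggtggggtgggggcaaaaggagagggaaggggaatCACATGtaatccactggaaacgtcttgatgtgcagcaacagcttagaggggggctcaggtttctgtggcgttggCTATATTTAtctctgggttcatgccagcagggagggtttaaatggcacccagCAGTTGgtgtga
The E-boxes found were CACATG, starting 138 bases before the start, and CAGTTG, starting 12 bases before it. The MEF2 core CTATATTTA started 64 bases before it, and no hit of one motif overlapped another. Of 32851 RefSeq promoters in the table, 66.2% held at least 1 E-box in the same 250 bases, 31.8% held 2 or more, 3.27% held the MEF2 core and 2.25% held both motifs. An E-box is thus common in windows of this length and the MEF2 core is not.

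Promoters of 7 members were in the table, 9 sequences in all. An E-box was found in 4 of them and the MEF2 core in 1, that of Myog. Cdh15 had 3 E-boxes in its window, and of the 3 Mef2c promoters 1 held 2, 1 held 1 and 1 held none. The promoters of Pax7, Myf5, Mef2a and Mef2d held neither motif. Myod1 and Myf6 were not among the promoters used here. A match describes the letters only, and no binding was measured.

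Genes around these factors were described from lists of general knowledge, by counts of measured genes and without a test of the list. Among 21 measured genes of satellite cell identity and activation 1 rose and 1 fell, with a median log2 difference of -0.07 against -0.03 over all genes. Sdc4, which encodes the heparan sulfate proteoglycan syndecan-4 of the satellite cell surface, rose by 0.42 (SE 0.0857, limma adjusted p = 0.0167). Heyl, a target of Notch signalling, fell by 0.68 (SE 0.159, adjusted p = 0.034). Of 10 measured genes of cell division 0 were called and 2 had estimates above 0, and the median was -0.23. The 2 with the smallest p were Mcm2, a subunit of the replicative helicase, at -0.17 (adjusted p = 0.49) and Ccnd1, cyclin D1, at -0.28 (adjusted p = 0.546). Of the other 5 genes of cell division on the array, among them Top2a and Cdk1, no probe passed the filter.

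A mixed list held targets of MyoD and myogenin, acetylcholine receptor genes and fusion genes. Among its 19 measured genes 1 rose and 0 fell, with a median of 0.07. They include the acetylcholine receptor subunits, the developmental myosin genes Myh3 and Myh8, and the fusion gene Tmem8c. The Myh8 probe was very bright, at a mean log2 level of 10.73 in sedentary mice. Whether the Myh8 probe also reads adult myosin transcripts was not tested, so its estimate may not describe Myh8 alone. The gene that rose was Dok7, which encodes the activator of the receptor kinase MuSK at the neuromuscular junction, by 0.55 (SE 0.102, limma adjusted p = 0.00982). The 18 others, with the receptor subunits, did not pass the test. Among these Cdkn1a, named after its values were seen, had the largest estimate of the list, 0.62 (0.27 to 0.98). Its limma adjusted p was 0.0556, and 0.0734 with slide as a block. Among 14 genes tied to denervation and Myog, not all of them regulators of Myog, 2 rose and 0 fell, with a median of 0.12. Sik1, a salt-inducible kinase that phosphorylates class IIa histone deacetylases, rose by 2.11 (SE 0.232, adjusted p = 0.000379). Trim63, the ubiquitin ligase MuRF1, rose by 0.44 (adjusted p = 0.0472), and blocking by slide gave it 0.125.

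A further list held E proteins, inhibitors of the myogenic factors and some genes of neither kind, such as Sharpin. Of its 20 measured genes 1 rose and 5 fell, with a median of -0.11, against 3.67% of all genes called in either direction. Bhlhe41, a basic helix-loop-helix repressor that is also part of the circadian clock, fell by 0.47 (SE 0.0721, limma adjusted p = 0.00344). Zeb2, a zinc-finger repressor that binds E-box-like sites, fell by 0.41 (adjusted p = 0.0216). Hes1, a repressor downstream of Notch, fell by 0.69 (adjusted p = 0.0274). The other 2 that fell, named after their values were seen, were Bhlhe40 by 0.62 (adjusted p = 0.0275) and Snai1 by 0.63 (adjusted p = 0.041). Twist2, a basic helix-loop-helix factor of connective tissue, rose by 0.72 (adjusted p = 0.0165). With slide as a block the adjusted p was 0.0516 for Twist2, 0.0679 for Bhlhe40 and 0.13 for Snai1, so these 3 are not called there. Id1, an inhibitor that pairs with E proteins and is named here after its values were seen, had the largest estimate of the list, 0.95 (SE 0.246, adjusted p = 0.0527), and was called in that fit (adjusted p = 0.0255). No clock time of sampling is stated for the mice.

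Among 31 measured partners, kinases and repressors of MEF2, 1 rose and 1 fell, with a median of -0.01. The gene that rose was Sik1, which stands in this list as well, and Mamstr, a coactivator that binds MEF2, fell by 0.51 (limma adjusted p = 0.0446). In the fit blocked by slide its adjusted p was 0.141. Among 32 measured MEF2 target genes of muscle 1 rose and 0 fell, with a median of 0.02. That gene was Ppargc1a, which encodes the coactivator PGC-1alpha of mitochondrial genes, and it rose by 1.88 (SE 0.208, adjusted p = 0.000389). The other 31 targets, with creatine kinase, myoglobin and the sarcomeric genes of the list, did not pass the test.

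**Figure D4:**
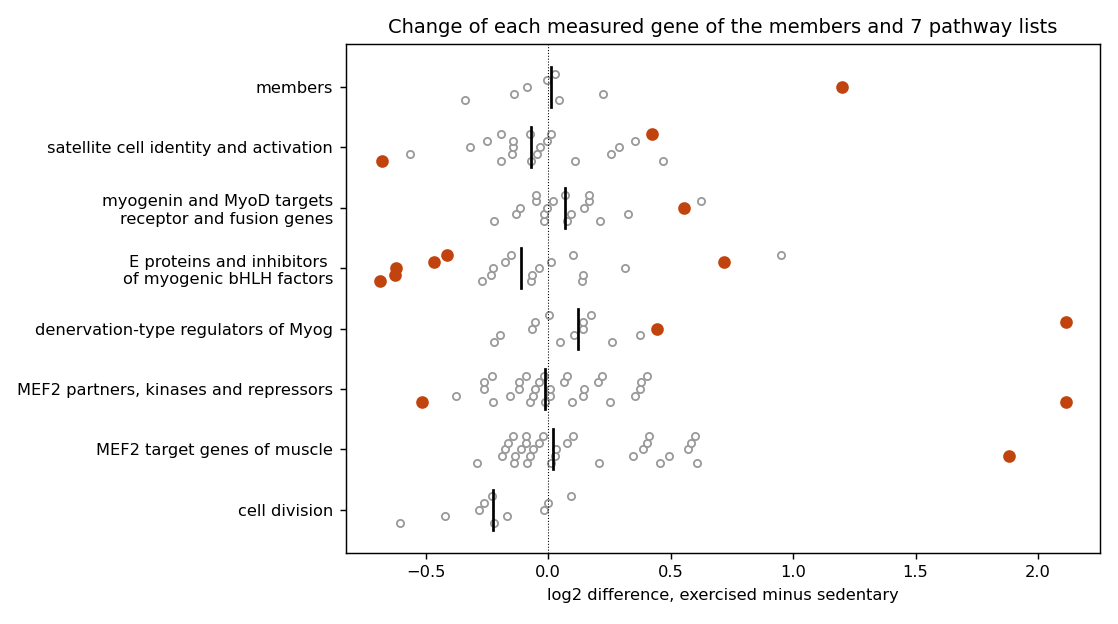
Log2 difference, exercised minus sedentary, of every measured gene among the 9 members and in 7 lists of genes around them; filled points passed the limma test at an adjusted p below 0.05 over all genes and the black bar is the list's median. Myog stands at 1.20 apart from the other members, Sik1 at 2.11 appears in 2 lists, and the list medians lie between -0.23 and 0.12.

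Beside these changes the markers of the tissue and of other cell types were read as summed levels, in multiples of each array's 75th percentile. Such a sum is set mostly by the brightest probes of a list and does not measure cell content. The satellite cell list holds the members Cdh15 and Pax7, at mean log2 levels of 2.40 and -3.30 in exercised mice, and Sdc4 at 1.49. In the smooth muscle list Acta2 was brightest, at 9.46 in exercised mice, so its probe sets most of the sum of that list. Whether this probe also reads skeletal actin transcripts was not tested. All 10 markers of adult fibres were measured and 0 were called, and their sum was 8486 to 10570 in exercised and 9637 to 11316 in sedentary mice. Of the satellite cell markers 7 of 8 were measured, 3 had estimates above 0 and 1, Sdc4, was called higher, with sums of 7.95 to 9.55 against 7.99 to 9.85. The endothelial sum was 25.0 to 34.1 against 32.3 to 42.7, with 2 of 9 markers called lower, of which Egfl7 was not called once slide was a block (adjusted p = 0.0744). Of the tendon markers 8 of 8 had estimates above 0 and 0 were called, with a median of 0.82 and sums of 62.4 to 152 against 27.5 to 81.2. Chodl, with an estimate of 0.47, counts both here and among the satellite cell markers above 0. The slow-fibre markers had 8 of 9 estimates above 0 and 0 called, with sums of 323 to 828 against 422 to 676. The nerve markers had 7 of 8 above 0 and 0 called, with sums of 17.9 to 25.2 against 18.0 to 20.1. The smooth muscle list, pericyte genes included, had 3 of 8 called, 2 of them higher, with sums of 708 to 832 against 707 to 854. Of these Myh11, 1 of the 2 called higher, lost its call in the blocked fit (adjusted p = 0.133). Egfl7, Myh11 and Chodl are named after their values were seen. The progenitor, macrophage and adipocyte lists had 0 called of 8, 8 and 7, with sums of 259 to 383 against 216 to 372, of 65.8 to 99.99 against 45.0 to 113 and of 243 to 877 against 150 to 780. What part these cell types have in the level of Myog was not tested.

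How the members varied from mouse to mouse was described by Pearson's r over the 12 arrays after each group's mean was taken off, over 28 pairs and with no p. All points share arrays, slides and scaling. The highest values were 0.64 for Myod1 with Myf6, 0.61 for Myod1 with Mef2a and 0.56 for Pax7 with Cdh15. The lowest was -0.55 for Myog with Cdh15. Among 13227 genes with a symbol, those most like Myog by this measure were Inmt (0.88), Btaf1 (0.88) and Ankrd6 (0.88), and none of the 3 passed the test between groups, with log2 differences of 0.51, 0.15 and -0.19. Those most like Myod1 were Slc47a1 (0.91), Ptk2 (0.87) and Cldnd1 (0.87), and those most like Myf6 were Pnpla8 (0.92), Acsl4 (0.90) and Glrx3 (0.90).

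For Pax7 the 3 genes were Cd276 (0.89), Tppp3 (0.89) and Gm6211 (0.88), and for Cdh15 they were Usp5 (0.97), Akr7a5 (0.96) and Chtop (0.94). Nedd4l (0.86) and Stip1 (0.85) were among those most like Mef2a, Mtpap (0.92) and Brd3 (0.89) among those most like Mef2c, and Zfp747 (0.90), Snai3 (0.89) and Ddx6 (0.88) were most like Mef2d. No member was among the 3 genes most like any other member. The highest of so many values over 12 arrays is large in any case, and these are given as a description.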

How the data were processed

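RNA was measured on 12 arrays of 12 mice, 1 array a mouse. The deposited scanner files hold linear spot intensity, extracted by the authors with Agilent Feature Extraction 10.5.1.1 per the file headers. Version 9.1 is named in the submitters' processing notes. The processed intensity is background-subtracted within the array. A deposited value table with intensity per probe gave 100% of single-spot values within 0.1% of it and served as an alternative. How repeated spots were combined there is not given in the sources used here.

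Control and outlier-marked spots were dropped, spots of a probe averaged, and log2 values set to each array's 75th percentile, which was 167 to 237 units of intensity. Probes well above background (21707 to 25229 an array) on at least 6 of 12 arrays were kept, 22916 in all, with the brightest probe for each of 16450 genes. Groups were compared with limma 3.58.1 in R 4.3.3 (Benjamini-Hochberg, called below 0.05), and the pipeline was tested on simulated data. The number of arrays limits the precision.

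All 9 members are named at every probe. Of each list the called genes are named up to 4 by smallest p, otherwise the 2 with the smallest p, and for each member the 3 most correlated genes, of which some are not reported here. The members and lists were chosen with earlier results of these data known. Alternatives covered scaling, background correction, filters, probe choice, variance models, weights, outlier marks, slide and set blocks, a replicate block, single slides and leaving out each array.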

Additional observations from a re-analysis of the deposited data

Results flagged for a closer look

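Among the 20 groups of 6 mice formed by the 10 measured probes, 1 held a mouse far from the others. In the sedentary group the Cdh15 level of animal 4 of set 2 was 2.75, whereas the next highest was 2.54. The gap was 0.628 of the group's whole range, just past the critical value of Dixon's test for 6 values. Chance gives such a gap in about 1 of 20 groups. Without this array the log2 difference of Cdh15 was -0.10 in place of -0.14, and it was not called in either fit (limma adjusted p = 0.634 and 0.418).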

How the results depend on the processing

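Myog kept its direction in all 33 alternatives. It stayed called in 16 of 21 fits other than the omission of an array, with log2 differences of 0.64 to 1.45 over all 21, and in 12 of 12 fits that left out 1 array (1.096 to 1.263, limma adjusted p of 0.00138 to 0.00384). The members called numbered 1 in those fits and 0 in the 5 others, while 418 to 571 genes were called without 1 array. The 5 were the planned normexp correction (Myog 0.64, limma adjusted p = 1, 0 of all genes called, 107 at an unadjusted p below 0.05), slide 1 alone (1.08, 0 genes, 1006 unadjusted), slide 2 alone (1.45, 8 genes, 963 unadjusted), slide 3 alone (0.94, 0 genes, 2141 unadjusted) and the replicate block. Each slide holds 4 arrays. The planned normexp fit met 7 to 47 spots with local background over 10 times the median on 4 arrays. With the background limited to that, an alternative added after the data were seen, 392 genes were called and Myog was 0.96 (limma adjusted p = 0.000119). Without a filter on dim probes 317 genes were called, and with slide as a fixed block 350.

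The replicate block used the 8 arrays with numbers found in both groups and called 29 genes (1804 unadjusted) with Myog at 1.15 (limma adjusted p = 0.137). The same 8 arrays without it, added later, called 130, with Myog at 1.15 (adjusted p = 0.0401). Arrays with the same number had correlations of deviations of 0.15, -0.19, 0.12 and 0.28, so the numbers were not taken as pairs.

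The change of Myog against Myod1 was 0.54 to 1.20 in 8 alternatives and 1.05 to 1.29 without 1 array. Against Myf6 it was 1.08 to 1.23 without 1 array, and 0.28 (two-sided exact permutation test, p = 0.671) under planned normexp, where it no longer passed. The other members were called in no alternative, and some estimates changed sign. Without 1 array Myod1 ran from -0.044 to 0.11, Mef2c from -0.057 to 0.045 and Myf6 from -0.0044 to 0.12. Myod1 was -0.030 with array weights, -0.078 with slide as a block, -0.20 on the 8 arrays with and without the replicate block, -0.23 on slide 1 and -0.074 on slide 3. Mef2c was 0.29 under planned and 0.021 under limited normexp, 0.0090 with array weights, 0.016 and 0.00046 with slide as a fixed and a random block, 0.0049 on the 8 arrays either way, 0.024 on slide 1 and 0.037 on slide 3. Myf6 was -0.0074 with slide as a block and -0.30 on slide 1, Pax7 0.092 on slide 1, Cdh15 0.027 under planned normexp and Mef2d 0.048 on slide 2. Mef2a kept its sign, but its main estimate of 0.23 was 0.031 under planned and 0.045 under limited normexp. Pax7, at -0.34 in the main fit, was -0.064 and -0.10 there. Both normexp fits added an offset of 50 units to every signal. In the main fit, signals were 17.0 to 29.7 units for Pax7 and 34.3 to 71.1 units for Mef2a. What part the offset has in the smaller estimates was not tested, nor was the cause of the other changes. Myf5 and the second Mef2c probe, well above background on 0 of 12 arrays, have no fold in any setting reported here.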
